A study of Mus musculus with 5 samples.

Results

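Intermediate filament genes of neural cells were followed across 5 lines derived from the mouse neuroblastoma cell line Neuro2A. They are Nes, Vim, Nefl, Nefm, Nefh, Ina, Prph and Gfap, which makes 8 of 18193 genes that the array's annotation names by a symbol of their own. All probe sets annotated with one of these symbols alone are described, 20 of 45037 once the array's own controls are left out. The tested lines were 2 stable KDM7 knockdown lines, KDM7 KD1 and KDM7 KD2, each transfected with a different vector against KDM7, the histone demethylase encoded by Kdm7a. They were set against 3 control lines, namely parental Neuro2A, Neuro2A with an empty vector, and an EGFP KD line that carries a vector for knockdown of EGFP, a reporter from jellyfish that mouse cells lack. Only the parental line carried no vector, and all 5 lines were grown under standard conditions for Neuro2A. Each line gave 1 Affymetrix 3' expression array, and the deposited value is a signal intensity on a linear scale. The labels do not say whether a line is 1 clone or a pool, or that lines were cultured separately, so p-values measure only the spread between these 5 arrays. With 2 arrays against 3, precision is low throughout.

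Intermediate filaments are the rope-like part of the cytoskeleton, built from proteins that share a central coiled-coil rod. Cells of the neural lineage change the set they use as they mature: dividing progenitors carry nestin (Nes) and vimentin (Vim), neurons carry internexin (Ina) and the light, medium and heavy neurofilament subunits (Nefl, Nefm, Nefh), peripheral neurons add peripherin (Prph), and astrocytes carry glial fibrillary acidic protein (Gfap). In neurons these subunits assemble together and set the calibre of large axons. Neuroblastoma arises from the sympathetic lineage of the neural crest, in which peripherin is a usual filament.

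The promoters of Nes and Ina, whose signal was lowest in both knockdown lines by some of their probe sets, are shown beside that of Vim, whose signal was not. No probe set of these genes passed the test described below, and a link between promoter content and signal was not tested. Each runs from 250 bases before to 50 bases after the RefSeq start (build GRCm38.p6), on the gene's strand. Capitals mark the GC box GGGCGG or its complement CCGCCC, the CCAAT box CCAAT or its complement ATTGG, and the TATA box TATAAA. All were searched on both strands, and no matches overlapped.
Nes, chr3:87970843-87971142, + strand: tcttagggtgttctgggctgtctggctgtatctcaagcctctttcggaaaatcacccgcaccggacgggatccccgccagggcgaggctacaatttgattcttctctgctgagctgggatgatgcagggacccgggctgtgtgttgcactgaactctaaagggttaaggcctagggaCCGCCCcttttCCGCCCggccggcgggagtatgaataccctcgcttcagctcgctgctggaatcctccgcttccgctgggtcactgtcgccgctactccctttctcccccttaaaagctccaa
Ina, chr19:47014431-47014730, + strand: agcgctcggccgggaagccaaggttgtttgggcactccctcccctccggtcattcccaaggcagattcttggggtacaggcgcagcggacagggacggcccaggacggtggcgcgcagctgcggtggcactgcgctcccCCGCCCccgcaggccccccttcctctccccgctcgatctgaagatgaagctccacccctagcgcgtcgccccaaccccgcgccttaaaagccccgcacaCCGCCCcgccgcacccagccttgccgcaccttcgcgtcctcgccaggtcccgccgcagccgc
Vim, chr2:13574061-13574360, + strand: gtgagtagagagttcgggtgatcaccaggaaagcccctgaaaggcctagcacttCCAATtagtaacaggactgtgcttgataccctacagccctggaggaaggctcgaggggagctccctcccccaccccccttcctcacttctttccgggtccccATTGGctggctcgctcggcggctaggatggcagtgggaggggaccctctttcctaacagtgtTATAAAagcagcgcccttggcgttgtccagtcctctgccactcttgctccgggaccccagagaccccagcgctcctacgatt
The Nes and Ina windows each held 2 GC boxes and no TATA box. The Vim window held no GC box, 2 CCAAT boxes and a TATA box that begins at position -32 from the start, and the Prph window held 1 GC box and a TATA box at position -31. Of 32851 RefSeq promoters of this length, 35.7% held at least 1 GGGCGG, 37.4% at least 1 CCAAT and 13.6% at least 1 TATAAA on either strand. The share with 2 of a box was not counted. The windows also differed in CpG dinucleotides, with 32 in Ina, 18 in Nes, 11 in Vim, 10 in Prph and 3 in Gfap, against a median of 7 over all promoters. The E-box CACGTG, found in 7.2% of all promoters, and the AP-1 site TGACTCA, found in 5.2%, were in none of the 5 windows. RefSeq promoters were matched for these 5 of the 8 genes.

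The knockdown and the identity of the cells were checked first. Kdm7a probe set 1456150_at had a signal of 130 in KDM7 KD1 and 136 in KDM7 KD2, against 487 in the parental, 611 in the empty vector and 665 in the EGFP KD line. By Kdm7a 1435867_at and 1427359_at both knockdown lines were also below all controls, but these did not pass (limma adjusted p = 0.128 and 0.869). Of its dim probe sets, 1459820_at was below all controls in both knockdown lines and 1459821_x_at overlapped. Of 12 genes of neuroblastoma and the sympathoadrenal lineage used here, 10 passed the brightness limit, a mean log2 signal over the 5 arrays that corresponds to 40.5. Among them were Hand2 and Phox2a, transcription factors that define the lineage, Dbh of noradrenaline synthesis, and the neuronal genes Tubb3 and Stmn2. Both knockdown lines were below all controls for 3 of the 10, Gata3 (log2 change -1.68), Isl1 (-1.62) and Chga (-0.56), against 10.2% of all tested probe sets. Both were above all controls for 1, Chgb (0.58), against 12.6%. None passed, with limma adjusted p = 0.881 for Chgb and 0.916 for the other 3. The part of these genes in the filament values was not tested. Th, which starts catecholamine synthesis, was under the brightness limit, with signals of 24.7 and 38.1 in the knockdown lines and 22.1 to 68.6 in the control lines. Of 8 fibroblast and mesenchymal markers, which matter here because such cells also carry vimentin, Col1a2 alone was above the brightness limit. The summed signal of this list was 160 and 151 in the knockdown lines and 130 to 191 in the control lines. Of 7 astrocyte markers Aldoc alone was above the limit, and of 7 neural progenitor markers Pax6, Msi1 and Hes5 were. Col1a2, Aldoc, Pax6, Msi1 and Hes5 did not pass in limma (adjusted p between 0.916 and 0.986). Under the limit, Sox2 stayed between 1.23 and 9.41 and Sox1 between 1.89 and 11.1 in all 5 lines. Prom1 had a signal of 153 in the parental line and 3.67 to 13.8 in the other lines. Fabp7 had 19.3 in the parental line and 2.42 to 5.45 in the others. The part of these markers in the Nes values was not tested.

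In these cells 5 of the filament genes gave a signal above the brightness limit and 3 did not. Nes, Vim, Nefh, Ina and Prph had 11 probe sets that passed the limit and were tested. The remaining 9 probe sets did not pass, and they hold every probe set of Nefl, Nefm and Gfap, 1 of Nes and 2 of Prph. Levels of different probe sets cannot be set against each other on these arrays, so the lines are compared within each probe set.

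None of the 11 tested probe sets passed the test of knockdown against control. The test was limma's moderated test over all 22519 probe sets above the limit, with Benjamini-Hochberg adjustment at 0.05, which called 0.00888% of them, 1 probe set each of Kdm7a and Fst. Adjusted p-values of the filament probe sets lay between 0.916 and 1.00. At an unadjusted p under 0.05 there were 3 filament probe sets, against 4.96% of all tested. For the same 3 of 11, 1 of Nes and 2 of Ina, both knockdown lines were lower than all controls, against 10.2% of all tested. They were higher than all controls for 0 of 11, against 12.6%, which makes 3 of 11 on either side, against 22.8%. The 2 probe sets of Ina are of one gene and so are not separate cases. In RNA of whole cultures, fewer cells with a transcript and less of it per cell cannot be told apart. The median log2 change, knockdown minus control throughout, was -0.09 over the 11 probe sets and 0.03 over all tested.

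**Figure D1:**
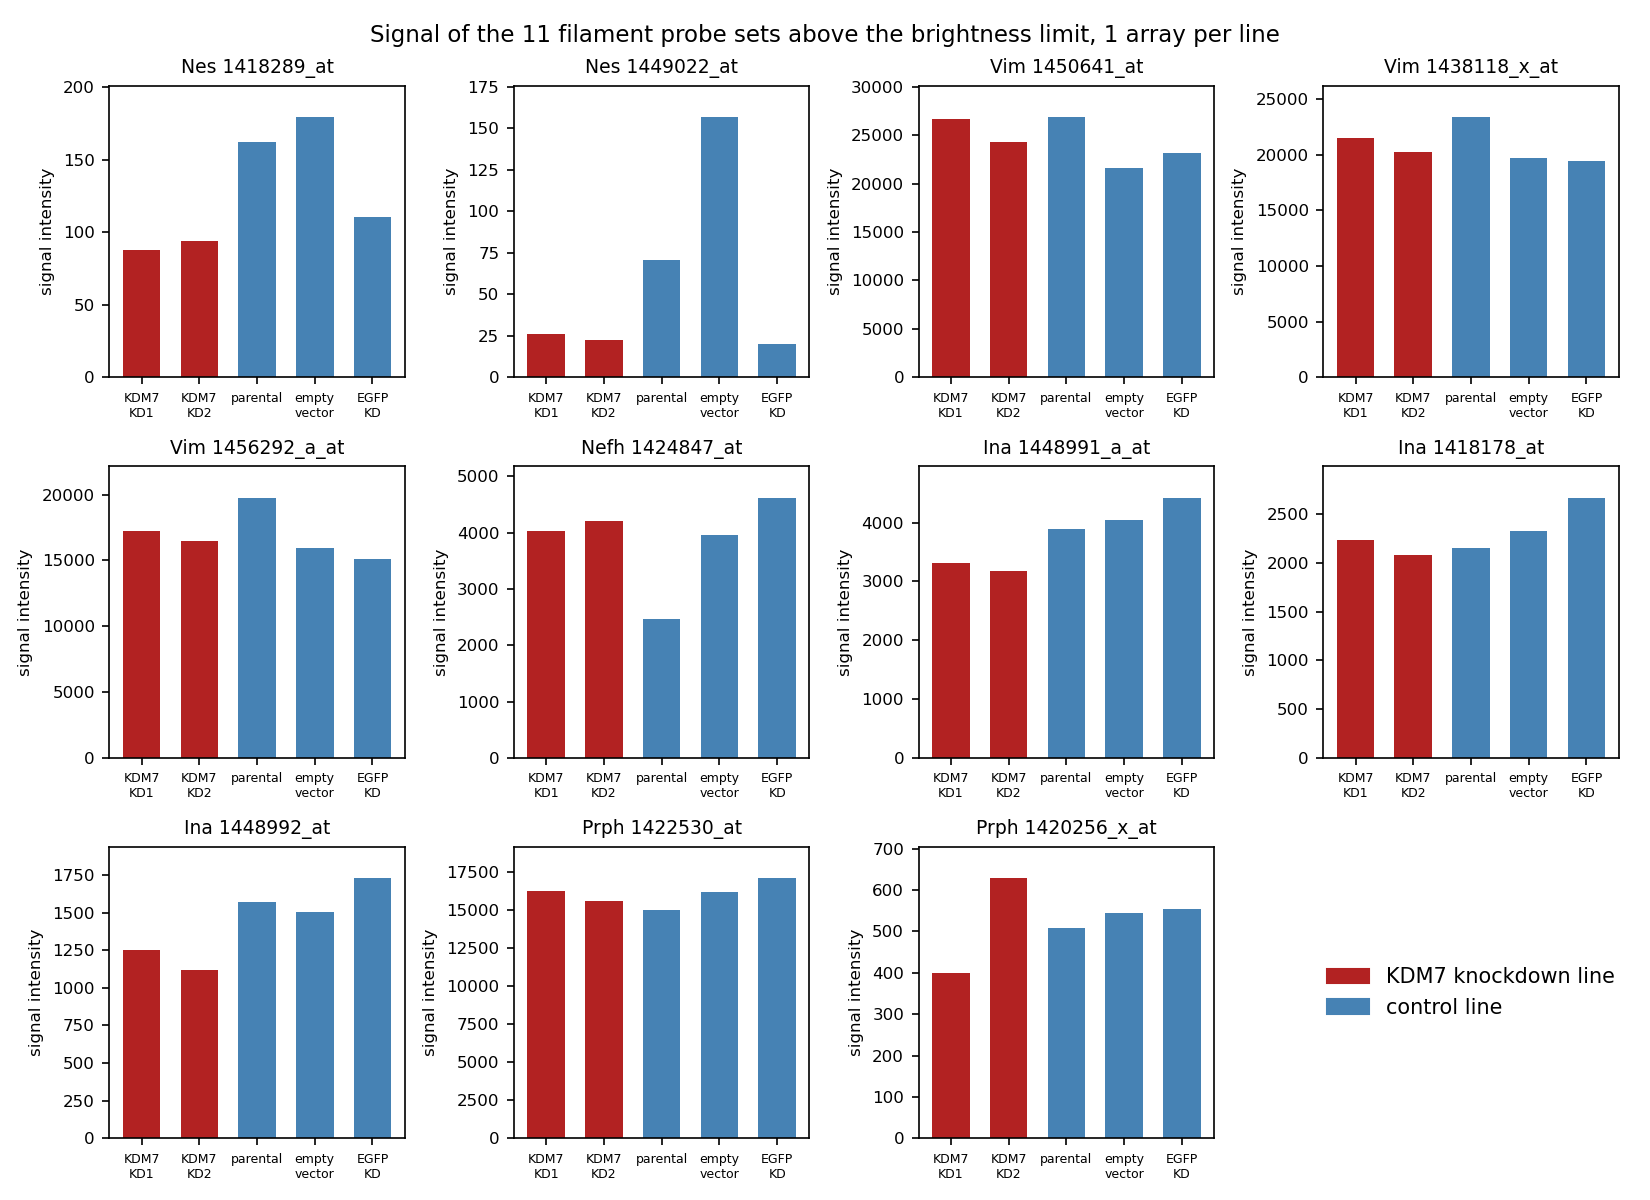
Signal intensity (linear, bars from 0) of the 11 filament probe sets above the brightness limit in KDM7 KD1 and KDM7 KD2 (red) and in the 3 control lines, parental, empty vector and EGFP KD (blue), 1 array per bar, with a separate scale in each panel. Both red bars are lowest for Nes 1418289_at, Ina 1448991_a_at and Ina 1448992_at, while for Nes 1449022_at the EGFP KD line is lower still.

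Nestin, the filament of dividing neural progenitors, differed more between lines than the other tested members. Nes 1418289_at had a signal of 87.5 in KDM7 KD1 and 94.2 in KDM7 KD2, against 162 in the parental, 179 in the empty vector and 110 in the EGFP KD line. Both knockdown lines were the lowest, and the EGFP KD line stood nearer to them than to the other controls. The knockdown lines averaged 90.9 ± 4.69 (SD, n = 2) and the control lines 151 ± 35.9 (SD, n = 3), a log2 change of -0.70 (SE 0.29, 95% interval -1.37 to -0.03) that did not pass (limma adjusted p = 0.916).

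The second probe set of Nes showed the split between control lines more widely. Nes 1449022_at had a signal of 25.9 in KDM7 KD1 and 22.5 in KDM7 KD2, against 70.8 in the parental, 157 in the empty vector and 20.1 in the EGFP KD line. The lowest line was thus a control, the EGFP KD line, and the groups overlapped. The log2 change was -1.33 (SE 0.78, 95% interval -3.12 to 0.46, limma adjusted p = 0.916). It was -2.12 without the EGFP KD line and -0.65 without the empty vector line, so single control lines set its size. Signals of 25.9 and less lie under the brightness limit and were not shown to be above background. The third, dim probe set 1453997_a_at had signals of 6.87 and 1.18 in the knockdown lines, against 12.6 in the parental, 15.4 in the empty vector and 4.95 in the EGFP KD line. By each of the 3 Nes probe sets the parental and empty vector lines were the highest of the 5, and KDM7 KD1, KDM7 KD2 and EGFP KD were lower. These probe sets are of one gene and so are not separate cases, and the cause of this order was not tested.

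Vimentin, the filament that progenitors share with mesenchymal cells, stayed within a narrow range. Vim 1450641_at had a signal of 26677 in KDM7 KD1 and 24303 in KDM7 KD2, against 26864 in the parental, 21576 in the empty vector and 23217 in the EGFP KD line. The parental line was the highest, and the knockdown lines lay inside the control range. The log2 change was 0.10 (SE 0.10, 95% interval -0.12 to 0.32, limma adjusted p = 0.927), and its sign turned under median centring. The other 2 probe sets, 1438118_x_at and 1456292_a_at, had log2 changes of 0.01 (95% interval -0.20 to 0.21) and 0.00 (95% interval -0.26 to 0.26), and both signs turned under each of the 3 other normalizations. The parental line was the highest by all 3 Vim probe sets, and changes within these intervals could not be detected here.

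Internexin, a subunit that neurons make early and that joins the neurofilament subunits in the same filament, was the tested neuronal member with both knockdown lines below all controls, by 2 of its 3 probe sets. Ina 1448992_at had a signal of 1253 in KDM7 KD1 and 1118 in KDM7 KD2, against 1568 in the parental, 1505 in the empty vector and 1728 in the EGFP KD line. The groups did not overlap. The knockdown lines averaged 1186 ± 94.9 (SD, n = 2) and the control lines 1600 ± 115 (SD, n = 3), a log2 change of -0.43 (SE 0.14, 95% interval -0.76 to -0.10, limma adjusted p = 0.916).

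Ina 1448991_a_at gave the same order of the groups. It had a signal of 3312 in KDM7 KD1 and 3177 in KDM7 KD2, against 3896 in the parental, 4035 in the empty vector and 4422 in the EGFP KD line (log2 change -0.34, SE 0.11, 95% interval -0.60 to -0.08, limma adjusted p = 0.916). For the third probe set the groups overlapped. Ina 1418178_at had a signal of 2239 in KDM7 KD1 and 2078 in KDM7 KD2, against 2153 in the parental, 2326 in the empty vector and 2670 in the EGFP KD line. Its log2 change was -0.14 (SE 0.14, 95% interval -0.46 to 0.18, limma adjusted p = 0.927), and -0.05 without the EGFP KD line. The EGFP KD line was the highest of the 5 by each Ina probe set, while by each Nes probe set it was the lowest control line. By each Ina probe set KDM7 KD2 was the lowest line.

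The heavy neurofilament subunit, whose long phosphorylated tail spaces filaments in large axons, separated the parental line from the rest. Nefh 1424847_at had a signal of 4037 in KDM7 KD1 and 4200 in KDM7 KD2, against 2459 in the parental, 3962 in the empty vector and 4622 in the EGFP KD line. The knockdown lines lay between the 2 control lines that carry a vector. The log2 change was 0.21 (SE 0.24, 95% interval -0.36 to 0.78, limma adjusted p = 0.937), and -0.06 without the parental line, which turned its sign.

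Peripherin, the filament of sympathetic and sensory neurons, was nearly level across the 5 lines by its brightest probe set. Prph 1422530_at had a signal of 16229 in KDM7 KD1 and 15603 in KDM7 KD2, against 15006 in the parental, 16194 in the empty vector and 17089 in the EGFP KD line. The knockdown lines lay inside the control range, with a log2 change of -0.01 (SE 0.08, 95% interval -0.19 to 0.17, limma adjusted p = 0.987), and its sign turned without the EGFP KD line or KDM7 KD2. Its SD over the 5 lines was 0.07 on the log2 scale, against a median of 0.24 over all tested probe sets. The dimmer 1420256_x_at, a kind of probe set (suffix x) whose probes may also match other transcripts, had a signal of 401 in KDM7 KD1 and 628 in KDM7 KD2, against 509 in the parental, 544 in the empty vector and 555.2 in the EGFP KD line. The knockdown lines thus stood on opposite sides of all controls, as they did for 4.73% of all tested probe sets, and for this 1 of the 11 filament probe sets. Their mean gave a log2 change of -0.09 (SE 0.22, limma adjusted p = 0.966), which was 0.23 without KDM7 KD1 and -0.42 without KDM7 KD2.

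**Figure D2:**
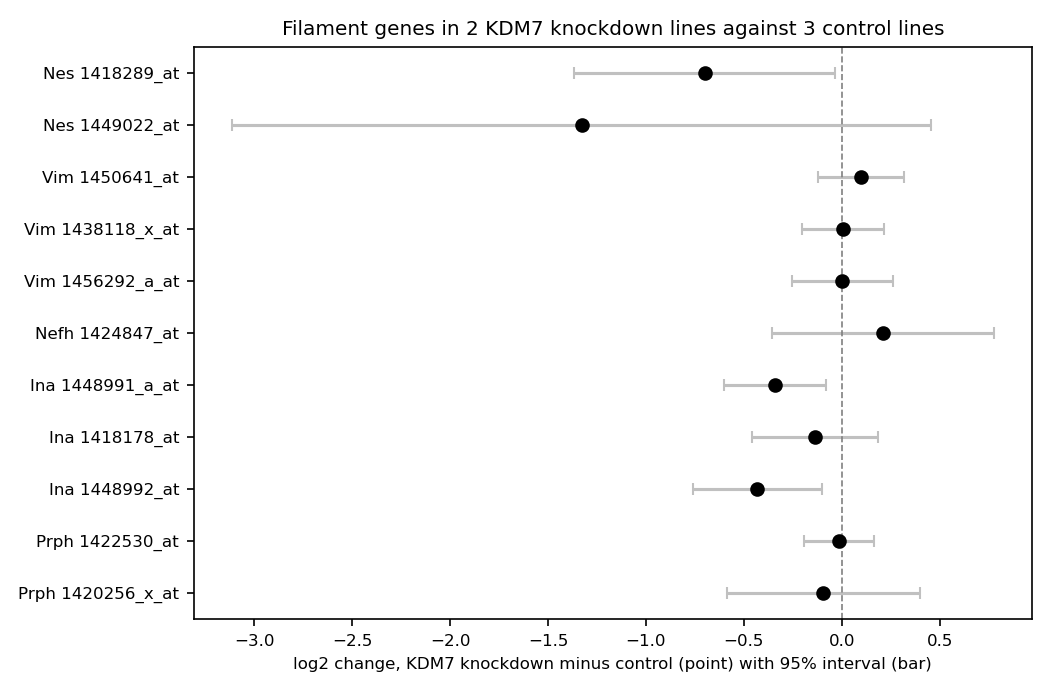
Log2 change of the 11 tested filament probe sets, mean of the 2 KDM7 knockdown lines minus mean of the 3 control lines (points), with limma's 95% intervals (bars). The intervals of Nes 1418289_at, Ina 1448991_a_at and Ina 1448992_at lie below 0 before adjustment over all probe sets, and the other 8 span 0.

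Progenitor and neuronal filaments were then set side by side within each line, using the brightest tested probe set of a gene. The progenitor level is the mean log2 signal of Nes and Vim, and the neuronal level that of Nefh, Ina and Prph, since Nefl and Nefm had no tested probe set. Relative to the mean of the control lines, the progenitor level was -0.29 in KDM7 KD1 and -0.31 in KDM7 KD2, against 0.16 in the parental, 0.07 in the empty vector and -0.23 in the EGFP KD line. The knockdown lines were lowest, and with Vim nearly level this order follows Nes. The neuronal level was -0.04 in KDM7 KD1 and -0.06 in KDM7 KD2, against -0.24 in the parental, 0.05 in the empty vector and 0.19 in the EGFP KD line, so the knockdown lines lay inside the control range.

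The difference of the levels, neuronal minus progenitor in log2 signal, was 1.98 in KDM7 KD1 and 1.97 in KDM7 KD2, against 1.33 in the parental, 1.70 in the empty vector and 2.14 in the EGFP KD line. The control lines spanned both knockdown lines. The knockdown mean was 1.97 ± 0.0038 (SD, n = 2) and the control mean 1.72 ± 0.41 (SD, n = 3), so the gap of 0.25 was smaller than the spread between control lines. It was 0.06 without the parental line and 0.46 without the EGFP KD line, and 0.44 when all tested probe sets of a gene were averaged. No test was made of this value, as it is a score over chosen genes.

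**Figure D3:**
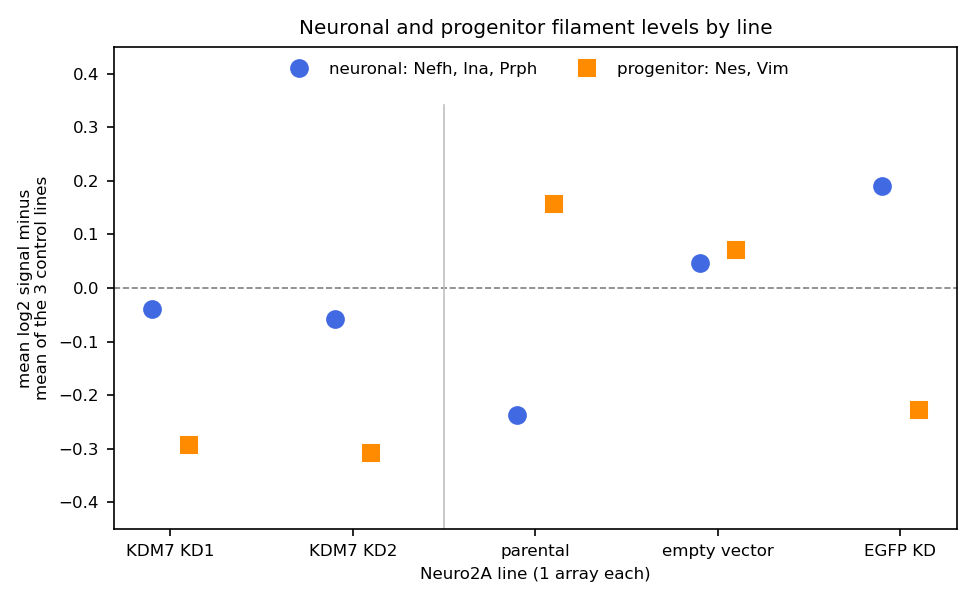
Mean log2 signal of neuronal filaments (Nefh, Ina and Prph, blue circles) and progenitor filaments (Nes and Vim, orange squares) in each line, as the difference from the mean of the 3 control lines (dashed line at 0), 1 array per line. Both levels in KDM7 KD1 and KDM7 KD2 lie close together, progenitor at -0.29 and -0.31, while the control lines spread from -0.24 to 0.19 for neuronal and from -0.23 to 0.16 for progenitor filaments.

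The dim members gave no stable picture of the lines. Nefl and Nefm, which encode the light and medium neurofilament subunits, are neighbouring genes on chromosome 14. Nefl 1454672_at had signals of 18.2 and 6.82 in KDM7 KD1 and KDM7 KD2, against 9.78 in the parental, 4.94 in the empty vector and 5.65 in the EGFP KD line. Nefl 1426255_at had 2.52 and 0.58 in the knockdown lines, against 1.35 in the parental, 17.8 in the empty vector and 3.68 in the EGFP KD line, so the line with the highest signal differed between the probe sets of this gene.

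Nefm 1422520_at had signals of 9.09 and 2.65 in KDM7 KD1 and KDM7 KD2, against 1.11 in the parental, 2.54 in the empty vector and 3.996 in the EGFP KD line. Gfap, the astrocyte filament, had its highest signal with 1426508_at, at 41.5 in KDM7 KD1 and 21.7 in KDM7 KD2, against 17.5 in the parental, 12.9 in the empty vector and 10.02 in the EGFP KD line. This was the 1 dim probe set of 9 with both knockdown lines on one side of the controls, against 22.8% of the tested probe sets, and the other 2 Gfap probe sets, between 0.63 and 17.2, overlapped. In a limma fit with no brightness limit its log2 change was 1.19 (SE 0.78, adjusted p = 0.940). By 4 of the 7 astrocyte markers, Aqp4, Slc1a2, Gja1 and Aldoc, both knockdown lines were above every control, against 12.6% of all tested probe sets. Of these, Aldoc alone was tested, with a log2 change of 1.21 that did not pass (limma adjusted p = 0.916). Aqp4, Slc1a2 and Gja1 were under the limit, and the share among probe sets as dim was not counted. For Aldh1l1, S100b and Slc1a3 the groups overlapped. Of the 7 markers, all but Aldoc were under the brightness limit, with signals between 4.02 and 46.6 in the 5 lines. The summed signal of the 7 astrocyte markers was 904 and 838 in the knockdown lines, against 174 in the parental, 583 in the empty vector and 660 in the EGFP KD line, mostly from Aldoc. The part of these markers in the Gfap values was not tested. The 2 dim Prph probe sets, 1449797_x_at and 1449796_at, had 8.21 to 29.1 in the knockdown lines and 8.43 to 45.05 in the control lines. Of the 45 values of these 9 probe sets 2 exceeded 40.5, and none of these signals was shown to be above background.

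**Figure D4:**
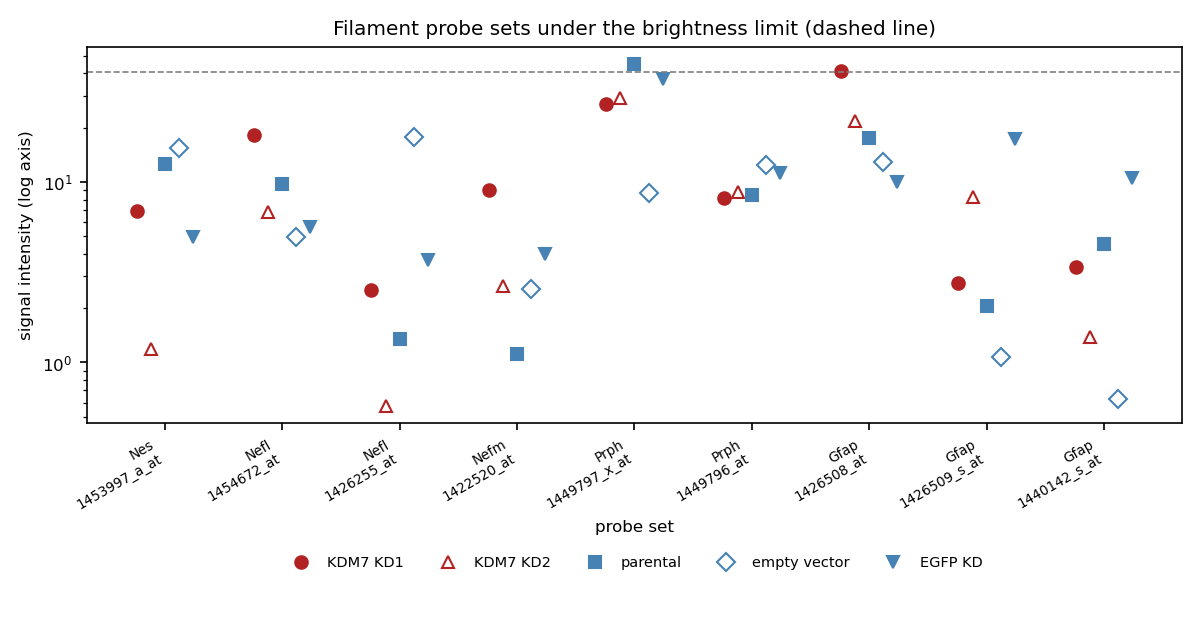
Signal intensity (log axis) of the 9 filament probe sets under the brightness limit of 40.5 (dashed line) in each line, with knockdown lines in red and control lines in blue, 1 array per point. Lines change order from probe set to probe set, and 2 of 45 points exceed the limit.

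The lines made with different vectors against KDM7 were close for most members. In a limma model with 3 groups, which assumes that each knockdown line varies like the controls, 0 of 11 filament probe sets differed between KDM7 KD2 and KDM7 KD1 after adjustment, against 0.00444% of all tested, and 0 had an unadjusted p under 0.05, against 1.51%. The log2 difference, line 2 minus line 1, was 0.11 for Nes 1418289_at (95% interval -1.06 to 1.27), -0.13 for Vim 1450641_at (-0.50 to 0.24), 0.06 for Nefh (-0.94 to 1.06) and -0.16 for Ina 1448992_at (-0.79 to 0.46). The widest gap was that of Prph 1420256_x_at, 0.65 (SE 0.31, 95% interval -0.06 to 1.36, limma adjusted p = 1.00). These intervals do not show that the lines are alike. Against the controls, 0 of the 11 passed for KDM7 KD1 (0% of all tested) and 0 for KDM7 KD2 (0.00444% of all tested). At an unadjusted p under 0.05 there were 0 for KDM7 KD1, against 1.99% of all tested, and 1 for KDM7 KD2, Ina 1448992_at, against 2.77%.

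Other intermediate filament genes were read from the same fit. Of 18 listed genes 9 had a probe set above the limit, and each was read by its brightest. Of these, 0 passed as higher and 0 as lower in limma, against 0.00888% of all tested. At an unadjusted p under 0.05 there were 0 of 9 as well, against 4.96%. Their median log2 change was 0.06, against 0.03 over all tested. Both knockdown lines were below all controls for 1 of 9, Bfsp1 (log2 change -0.22, SE 0.29), against 10.2% of all tested. They were above for 0, against 12.6%. The largest changes by the brightest probe sets were in Krt8, a keratin of simple epithelia, and Sync, which encodes a protein that binds desmin filaments in muscle. Krt8 1420647_a_at had a signal of 57.6 in KDM7 KD1 and 283 in KDM7 KD2, against 36.4 in the parental, 74.9 in the empty vector and 174 in the EGFP KD line, with a log2 change of 0.71 (SE 0.86, limma adjusted p = 0.939). The groups overlapped, with KDM7 KD2 and then EGFP KD the highest lines, and a second probe set, 1423691_x_at, had 1.17 (SE 0.79). For Sync the log2 change was 0.28 (SE 0.30) by 1422118_at, and 0.12 and -0.04 by its other probe sets. Des, which encodes the desmin of muscle, had 0.02 (SE 0.42). Its signals of 59.4 in KDM7 KD1 and 146 in KDM7 KD2 stood on opposite sides of all controls, which ranged from 77.2 to 115. Line 2 minus line 1 was 1.30 on the log2 scale (SE 0.53), which did not pass. Opposite sides were seen for 4.73% of all tested probe sets. The lamins of the nuclear envelope had log2 changes of 0.06 for Lmnb1, 0.19 for Lmna and -0.13 for Lmnb2 by their brightest probe sets. The other 3 tested Lmna probe sets had -0.25, -0.59 and -0.17, and that of Lmnb2 had -0.08. That of Lmnb1 had 0.24, with both knockdown lines above all controls.

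Genes that link, modify or carry filaments gave a like count. Of 16 listed genes 13 had a probe set above the limit, and each was read by its brightest. Of these 13 probe sets 0 passed as higher and 0 as lower in limma after adjustment, against 0.00888% of all tested. At an unadjusted p under 0.05 there was 1 of 13, that of Cdk5, against 4.96%. The median log2 change was 0.05. Both knockdown lines were higher than all controls for 2 of the 13 brightest probe sets, those of Cdk5 and Dst, against 12.6% of all tested, and lower for 0, against 10.2%. These 2 had the largest changes among the brightest probe sets. Among the other tested probe sets of these genes, both knockdown lines were above all controls by Gsk3b 1439931_at (log2 change 0.90) and Trim2 1417027_at (0.38). They were below by Myo5a 1431320_a_at (-0.19) and Kif5c 1450804_at (-0.36). Of all tested probe sets, 22.8% had both knockdown lines on one side. By every other tested probe set of Gsk3b, Trim2, Myo5a and Kif5c the groups overlapped, with log2 changes from -0.09 to 0.09 for Gsk3b. Cdk5, a kinase that phosphorylates neurofilament tails in neurons, had a signal of 810 in KDM7 KD1 and 856 in KDM7 KD2, against 565 in the parental, 591 in the empty vector and 656 in the EGFP KD line by 1450674_at (log2 change 0.47, SE 0.16, 95% interval 0.10 to 0.83, limma adjusted p = 0.916). Its dimmer tested probe set 1422590_at had 0.59 (SE 0.38) with overlapping groups. Dst, a plakin that ties filaments to the rest of the cytoskeleton, had 3121 in KDM7 KD1 and 3074 in KDM7 KD2, against 1640 in the parental, 2745 in the empty vector and 2631 in the EGFP KD line by 1423626_at (log2 change 0.44, SE 0.22, limma adjusted p = 0.916). The parental line was the lowest, as it was for Nefh. The Cdk5 activators Cdk5r1 and Cdk5r2 had log2 changes of -0.21 (SE 0.24) and -0.24 (SE 0.32), and the kinesin motor Kif5a, which carries neurofilaments along axons, had 0.05 (SE 0.21).

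Genes with a pattern like that of a filament gene were to be named where its brightest tested probe set had an SD over the 5 lines of at least 0.5 on the log2 scale. None did, the highest being 0.47 for Nes, so no such gene is named.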

How the data were processed

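RNA of 5 Neuro2A lines was labelled as biotin cRNA and hybridised to 1 array each, per the labels. The deposited values are signal intensities on a linear scale that the authors obtained from MAS5, per the submitters' processing notes; which version was not given in the sources used here. On each array the mean after 2% trimming was 500.0, so no further scaling was applied. Of 45101 probe sets 64 controls were left out. Log2 intensities were used without an offset, and the 22519 probe sets at or above the median of the mean log2 signal (a signal of 40.5) were tested. On a log scale MAS5 values scatter widely where the signal is dim, and no detection calls were used.

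Symbols came from the platform annotation, with 1 symbol for 34945 probe sets, several for 932 and none for 9160. No genome build belongs to the values. Promoters came from RefSeq.

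The test was limma 3.58.1 in R 4.3.3 (eBayes with trend and robust), 2 knockdown against 3 control lines, 3 residual degrees of freedom. A model with 3 groups compared the lines. The fits were tested on simulated data. Members and lists were chosen with earlier results of these data known. All member probe sets are named, with Kdm7a, the 2 largest changes of each further list, and the 3 genes of closest pattern for members with an SD of at least 0.5. Fst, the lamins, Gsk3b, Trim2, Myo5a, Kif5c, Des, Bfsp1, Cdk5r1, Cdk5r2, Kif5a and the named markers were chosen after their values were seen. So were the genes whose promoters are printed. Alternatives were 3 normalizations, 2 filters, adding 32 to the signal, array weights, a variance model lacking trend and robust, a threshold of 0.10, and each array left out in turn.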

Additional observations from a re-analysis of the deposited data

Results flagged for a closer look

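Prph 1420256_x_at stood out because the knockdown lines moved to opposite sides of every control line. KDM7 KD2 had a signal of 628 and KDM7 KD1 of 401, while the control lines lay between 509 and 555.2. Line 2 minus line 1 was 0.65 on the log2 scale (SE 0.31), which did not pass in limma (adjusted p = 1.00). Such opposite sides were seen for 4.73% of all tested probe sets. The brighter Prph 1422530_at had -0.06 for the same difference.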

How the results depend on the processing

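The count of filament probe sets past the threshold stayed at 0 in each of the 14 alternatives for knockdown against control and in each of the 11 for line 2 against line 1. Over all tested probe sets the first count was 2 and ran from 0 (cyclic loess, an offset of 32, no trend and robust, without the EGFP KD line or KDM7 KD2) to 6 (array weights). The log2 changes of Ina and Nes kept their sign throughout, from -0.54 to -0.35 for Ina 1448992_at, from -0.45 to -0.29 for 1448991_a_at, from -0.25 to -0.05 for 1418178_at, from -0.91 to -0.55 for Nes 1418289_at and from -2.12 to -0.65 for 1449022_at, with a lowest adjusted p of 0.620 in limma. The Nes probe sets did not pass the filter at the 70th percentile. The neuronal minus progenitor gap of 0.25 ran from 0.06 to 0.46. Median centring moved the median of all tested probe sets to -0.08, against 0.03 as deposited. Signs turned for all tested Vim, Nefh and Prph probe sets in at least 1 alternative, and the cause was not tested. With median centring, Vim 1450641_at was -0.0113, 1438118_x_at -0.104 and 1456292_a_at -0.107. With quantile normalization the last 2 were -0.0488 and -0.0058, and with cyclic loess -0.0018 and -0.0037. When each array was left out in turn, they ran from -0.0424 to 0.0906 and from -0.0755 to 0.120, Nefh from -0.0556 to 0.400, Prph 1422530_at from -0.0641 to 0.0297 and Prph 1420256_x_at from -0.419 to 0.231. For line 2 minus line 1 under median centring, Ina 1448991_a_at was 0.0067 and Prph 1422530_at 0.0102. Where 1 knockdown line is left, its spread is taken to be that of the control lines. No paired analysis was made, as the labels pair no knockdown line with a control line.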
